A study of Mus musculus with 7 samples.

Results

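The genes described here are 45 genes of DNA repair, taken by symbol from a listing of recombination, Fanconi anaemia, mismatch, base excision, damage signalling and end joining factors together with the helicase gene Pif1. All 45 were found among the 37975 genes of the deposited expression table, and 44 of them had been tested by the authors. Rad54b occurred under 2 identifiers at 1 locus, and the identifier present in the gene name table was used for it. The cells were mouse primary myoblasts, grown from satellite cells that had been sorted from young mice, aged 4 to 6 weeks, and the myotubes into which they fuse. Growing myoblasts (EV-GM) and myotubes kept for 48 hours in differentiation medium with 5% horse serum (EV-2DM) each gave 1 RNA sequencing value per gene, and both carried an empty retroviral vector. A list of binding sites of MyoD, the transcription factor that drives muscle differentiation, came from chromatin immunoprecipitation of 2-day myotubes. The series holds 7 samples, 1 per group, and the 4 histone samples were not analysed here. The labels say that the MyoD sample derives from an earlier one, and no MyoD antibody is among those in the protocol. Satellite cells cultured as myoblasts are a model of muscle precursors in a dish and not of muscle tissue.

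Cells repair DNA by several routes. Homologous recombination copies the sister chromatid to mend broken DNA and therefore works after replication, with BRCA1 and BRCA2 at its centre, and the Fanconi anaemia pathway unhooks crosslinks that block replication forks. Mismatch repair corrects copying errors behind the fork, base excision repair removes damaged bases in dividing and resting cells alike, and end joining religates broken ends without a template. Myotubes have left the cell cycle for good, so they no longer replicate their DNA or hold sister chromatids.

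Levels are FPKM, fragments scaled to transcript length and library size, which allow genes of different length to be compared. Log2 values give 2-day myotubes relative to growing myoblasts. Each carries the standard error (SE) implied by the test statistic in the authors' deposited table. A gene is spoken of as called where that table marks it significant, which went with a q-value, a p-value adjusted over all tested genes, of at most 0.05. Depth was unknown, as read totals were not among the sources. The protocol speaks of duplicates without saying how they were combined, so the q-values may reflect technical spread, and with 1 value a condition nothing could be checked on replicates.

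The identity of the cells was checked first. Summed FPKM of 9 skeletal muscle markers went from 2836 in myoblasts to 24341 in myotubes, and none of the 9 was at 0. Acta1, a sarcomeric actin, made up much of the rise, at 764 and 11909 FPKM, while the myoblast genes Myod1, at 895 and 293, Pax7, at 48.5 and 6.71, and Myf5, at 55.4 and 14.4, had lower values in myotubes, Myod1 without a call. Sums of 6 fibroblast markers were 4.33 and 0.720 FPKM, of 5 endothelial markers 4.71 and 0.431, of 5 immune markers 32.6 and 27.1, of 5 adipocyte markers 13.9 and 4.59, and of 5 Schwann and neural markers 18.8 and 2.69. Markers listed at 0 in both conditions were Dpt, Lum and Pi16 for fibroblasts, Emcn for endothelium, Emr1 for immune cells, and Plin1 and Cidec for adipocytes. Detected ones included Itgam at 20.6 and 24.3 FPKM, Cd68 at 11.04 and 2.80, Lpl at 13.6 and 4.36, Nefl at 15.1 and 1.87 and Pecam1 at 4.62 and 0.213. Of the fibroblast markers, Thy1 was at 3.70 and 0.516 FPKM and called lower, and Pdgfra was at 0.576 and 0.204. Apart from muscle, the sum of each list was lower in myotubes, and the part of other cell types in the results that follow was not tested. In bulk RNA, fewer cells of a type and less RNA per cell cannot be told apart.

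DNA repair genes were mostly lower in myotubes. Of the 44 tested genes, 26 were called lower, 0 higher and 18 were not called in the authors' deposited table. Over all 15966 tested genes, 17.3% had a lower call and 6.52% a higher one. The median log2 of the 44 genes was -1.81, against -0.41 for all tested genes above 0 in both conditions. A negative log2 was found for 43 of the 44, and the exception was the Fanconi gene Fancc. Above 10 FPKM stood 27 of the 45 genes in myoblasts and 11 in myotubes, and 6 tested genes lay under 1 FPKM in myotubes while none did in myoblasts. After the log2 values were centred on the median of all tested genes, 18 members were lower and 0 higher, where 10.3% of all genes were lower and 10.2% higher. The 8 that lost their call were Xrcc2, Fancl, Msh3, Pms2, Ogg1, Atr, Rad50 and Xrcc5. Of members alone in their locus, 14 of 25 were lower by the calls of the authors' deposited table, against 17.8% of all such genes, and of those sharing a locus 12 of 19 were. At a stricter q of at most 0.01, 19 members had a lower call in the authors' deposited table, against 11.1% of all tested genes.

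**Figure D1:**
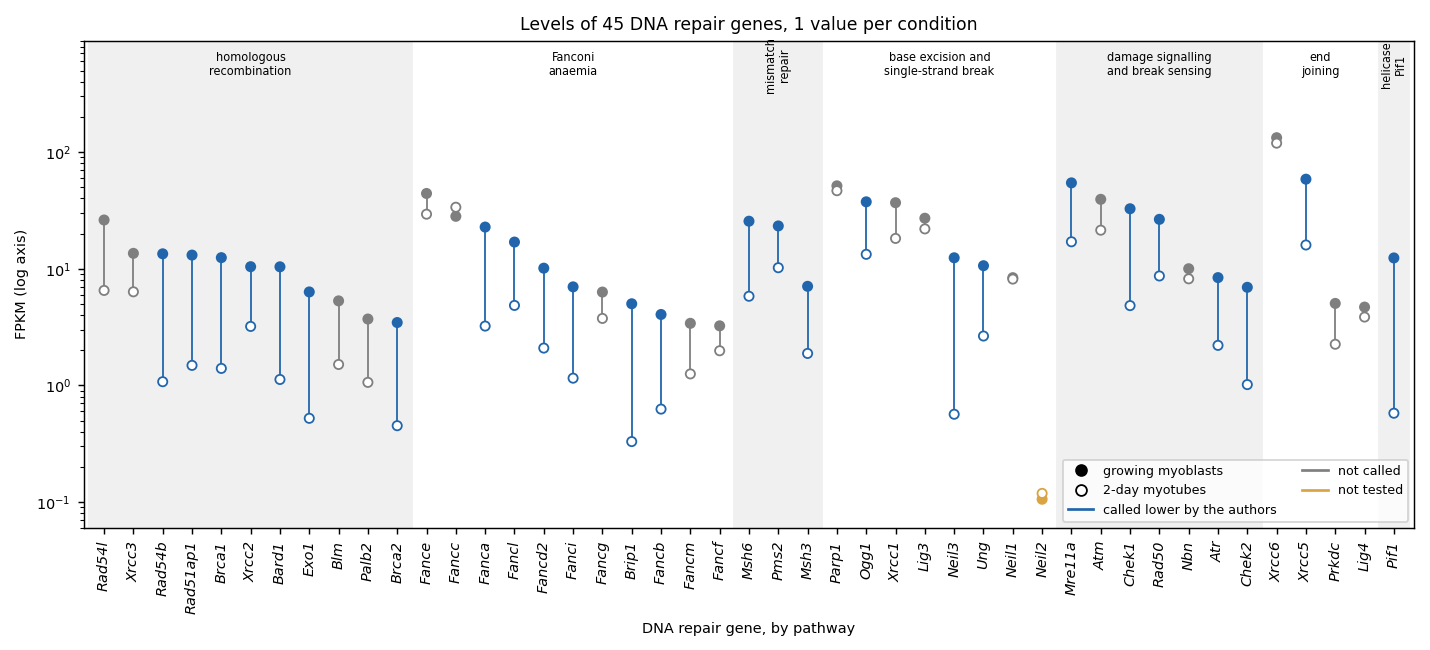
FPKM (log axis) of 45 DNA repair genes grouped by pathway and ordered by myoblast level, with filled circles for growing myoblasts and open circles for 2-day myotubes, joined by a line coloured by the authors' call. Xrcc6 stayed near the top in both conditions (133 and 119 FPKM), while Neil3 went from 12.4 to 0.566 and Neil2 was near 0.1 in both.

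Pathways differed in their medians. The counts called lower stand beside 17.3% of all tested genes with such a call. Homologous recombination had the lowest median log2, -2.94, with 7 of 11 genes lower by the calls of the authors' deposited table. With a pseudocount of 1 FPKM that median was -1.85, beside -1.62 for Fanconi and -1.55 for damage signalling genes. Without one, mismatch repair had -1.91 with 3 of 3, Fanconi genes -1.80 with 6 of 11, damage signalling and break sensing -1.68 with 5 of 7, base excision -1.02 with 3 of 7 and end joining -0.72 with 1 of 4 lower by the calls of the authors' deposited table. Summed over genes, recombination was 4.79-fold lower in myotubes, at 118 and 24.7 FPKM, and end joining 1.42-fold lower, at 201 and 141 FPKM. Taken as 1 group, the 22 recombination and Fanconi genes had a median of -2.14, and the 22 others -1.55, with 13 called lower in each group in the authors' deposited table. Centring moved the base excision median to -0.60 and that of end joining to -0.31. It left 2 of 7 and 0 of 4 genes lower there, where 10.3% of all genes were lower. The differences between pathways were not tested, and a median over 3 or 4 genes rests on few values. Myoblast levels differed as well, with a median of 10.4 FPKM for recombination, 6.99 for Fanconi, 27.1 for base excision and 31.8 for end joining genes.

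**Figure D2:**
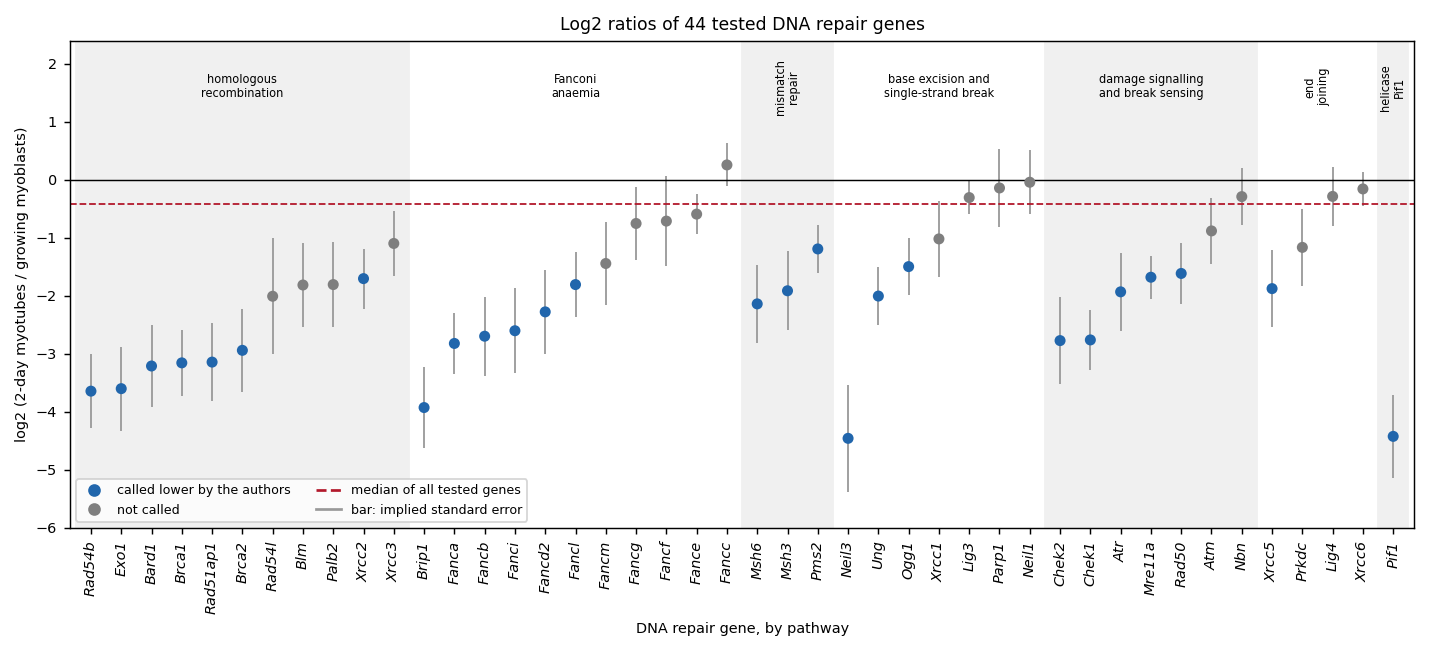
Log2 ratios (2-day myotubes over growing myoblasts) of 44 tested genes by pathway, with bars of 1 implied standard error and a dashed line at -0.41, the median of all tested genes. Recombination genes run from -3.64 (Rad54b) to -1.10 (Xrcc3), and end joining genes from -1.87 (Xrcc5) to -0.16 (Xrcc6).

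The promoters of the members were searched for motifs that E2F factors, the regulators of S-phase genes, are known to bind, since most members were lower in myotubes. RefSeq promoters of build GRCm38.p6, 250 bases before to 50 after the start, were at hand for 36 of the 45 genes. An E2F-type motif (TTTGGCGC, TTTCCCGC or TTTCGCGC on either strand) lay in 7 of the 36, or 19.4%, against 2.12% of 27025 genes with a promoter and 4.09% of those that share a symbol with a tested gene. The 7 were Bard1, Brca2, Chek2, Msh3 and Msh6, called lower in the authors' deposited table, and Fancg and Xrcc6, not called there. By call, 5 of 20 genes lower by the calls of the authors' deposited table and 2 of 16 others had one. A match describes letters and is not a binding site, and other forms of the motif were not searched. The stretches around the motif are shown for 6 of these genes because they carry the match, written along the gene and cut at its start, with the E2F-type letters in capitals. In Msh6 the motif began 15 bases after the start.

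Bard1 (chr1:71103128-71103222, - strand): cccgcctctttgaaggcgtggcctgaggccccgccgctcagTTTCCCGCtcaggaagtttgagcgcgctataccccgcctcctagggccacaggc
Brca2 (chr5:150522407-150522506, + strand): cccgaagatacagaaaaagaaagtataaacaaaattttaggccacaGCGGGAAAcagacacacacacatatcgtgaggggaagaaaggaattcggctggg
Chek2 (chr5:110839785-110839884, + strand): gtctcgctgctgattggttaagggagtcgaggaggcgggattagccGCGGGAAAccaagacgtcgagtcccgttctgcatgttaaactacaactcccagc
Msh3 (chr13:92355148-92355251, - strand): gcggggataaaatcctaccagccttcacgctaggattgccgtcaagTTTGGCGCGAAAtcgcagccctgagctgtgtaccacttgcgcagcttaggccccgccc
Fancg (chr4:43010302-43010399, - strand): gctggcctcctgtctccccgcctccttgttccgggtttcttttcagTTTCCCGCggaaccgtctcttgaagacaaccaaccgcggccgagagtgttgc
Xrcc6 (chr15:82016277-82016368, + strand): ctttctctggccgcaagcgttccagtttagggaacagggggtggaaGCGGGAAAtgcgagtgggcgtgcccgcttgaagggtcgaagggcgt

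In Bard1, Brca2, Chek2 and Msh3 the first letter lay between 209 and 152 bases before the start, and in Fancg and Xrcc6 it lay 52 and 46 bases before it. In Msh3, TTTGGCGC and the reverse of TTTCGCGC overlapped. The motif TTTGAA, known from promoters of late cell cycle genes, was in 1 of 36 members, Bard1, against 20.2% of all genes and 14.1% of tested genes. CCAAT, searched on both strands, was in 22 of 36, or 61.1%, against 41.1% of all genes and 43.3% of tested genes. By the calls of the authors' deposited table it was in 11 of 20 genes called lower and in 11 of 16 others. Searched on the given strand alone, it was in 27.8% of members and 25.4% of tested genes.

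Among recombination genes, those that act early in repair included Brca1 and Bard1, both called lower. Brca1, a ubiquitin ligase that steers breaks into recombination (chr11:101350077-101413269, mm9), was at 12.4 FPKM in myoblasts and 1.40 in myotubes. It fell by 3.15 on the log2 scale (SE 0.57, q = 1.04e-06, authors' deposited table). Bard1, its obligate partner (chr1:71074071-71149720, mm9), was at 10.4 and 1.12 FPKM and fell by 3.21 (SE 0.71, q = 9.92e-05, authors' deposited table). Brca1 was the higher of the partners in both conditions, by 1.198-fold in myoblasts and 1.24-fold in myotubes.

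Brca2, a central mediator of recombination, was low in myoblasts at 3.46 FPKM and reached 0.451 in myotubes, a fall of 7.66-fold (q = 0.000521, authors' deposited table). Palb2, the bridge between BRCA1 and BRCA2, had no call at 3.71 and 1.06 FPKM (q = 0.0578 and log2 -1.80, SE 0.74, in the authors' deposited table). Rad51ap1, a cofactor of strand exchange, fell from 13.1 to 1.48 FPKM (log2 -3.14, SE 0.67, q = 5.30e-05, authors' deposited table). Brca2 and Rad51ap1, both called lower, thus ended below 1.5 FPKM.

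Rad54b, a motor protein of the strand exchange step, fell from 13.4 to 1.08 FPKM (log2 -3.64, SE 0.64, q = 4.64e-07, authors' deposited table). Its other identifier was at 4.99 and 0.565 FPKM and was called lower as well in the authors' deposited table (q = 0.00132). Rad54l, its better known paralogue, was at 26.2 and 6.51 FPKM and carried the largest SE of the members tested, 1.00, without a call in the authors' deposited table (log2 -2.01, q = 0.137). Whether the paralogues differ was not tested.

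Exo1, the nuclease that resects broken ends, fell 12.1-fold, from 6.32 to 0.522 FPKM (SE 0.73 on the log2 scale, q = 1.53e-05, authors' deposited table). Blm, the helicase of Bloom syndrome, was at 5.30 and 1.51 FPKM and just missed the threshold (q = 0.0517, authors' deposited table). Xrcc2, a recombination mediator, fell from 10.4 to 3.2 FPKM (log2 -1.70, SE 0.52, q = 0.00702, authors' deposited table), and Xrcc3, at 13.5 and 6.34, was not called. All 11 recombination genes had negative log2 values, including the 4 not called.

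Fanconi genes with a lower call were found in the core complex and among its targets. The core complex, a ubiquitin ligase that detects crosslinks, was represented by Fanca, Fancb, Fancc, Fance, Fancf, Fancg, Fancl and Fancm. Fanca fell from 22.8 to 3.22 FPKM (q = 1.71e-06, log2 -2.82 with SE 0.52), Fancb from 4.05 to 0.626 (q = 0.000795) and the catalytic subunit gene Fancl from 16.9 to 4.85 (q = 0.00851) in the authors' deposited table. Fance, at 44.2 and 29.3 FPKM, and Fancc, at 28.1 and 33.7, were the most abundant core genes in myotubes and were not called.

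Fancg was at 6.31 and 3.75 FPKM, Fancf at 3.24 and 1.98 and the translocase gene Fancm at 3.40 and 1.25, none of them called in the authors' deposited table. Fanca lies in a merged locus with 70 tested genes (chr8:122434259-126869624, mm9), and Fancf shares its locus with Gas2, which fell from 16.2 to 0.411 FPKM in the authors' deposited table. How the authors split reads between such neighbours is unknown.

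The targets of the core complex were both called lower in the authors' deposited table. Fanci went from 6.99 to 1.15 FPKM (log2 -2.60, SE 0.73, q = 0.00315, authors' deposited table). Fancd2 was at 10.1 and 2.09 FPKM (log2 -2.27, SE 0.72, q = 0.0102, authors' deposited table). Brip1, the BRCA1-bound helicase also called FANCJ, had the steepest decline of the Fanconi genes, 15.2-fold, from 5.01 to 0.330 FPKM (SE 0.70 on the log2 scale, q = 6.13e-07, authors' deposited table).

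Mismatch repair had 3 members. Msh6, which reads base mispairs, fell from 25.5 to 5.81 FPKM (log2 -2.14, SE 0.67, q = 0.00883, authors' deposited table). Msh3, which reads small loops, fell from 7.07 to 1.88 (q = 0.0253, log2 -1.91 with SE 0.68), and Pms2, which nicks the new strand, from 23.3 to 10.2 (q = 0.0198, log2 -1.19 with SE 0.41), in the authors' deposited table. All share a locus with another tested gene. Fbxo11, beside Msh6, was at 20.8 and 19.4 FPKM and not called. After centring only Msh6 remained lower (log2 -1.72).

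Base excision genes ranged from the steepest fall of all members to a log2 near 0. Neil3, a glycosylase for oxidised bases in single-stranded DNA (chr8:54672220-54724419, mm9), fell from 12.4 to 0.566 FPKM, or 21.9-fold (log2 -4.46, SE 0.93, q = 2.95e-05, authors' deposited table). Its relative Neil1 (chr9:56990606-56995929, mm9) was at 8.38 and 8.15 FPKM (log2 -0.04, SE 0.55, q = 0.973, authors' deposited table), and Neil2, at 0.106 and 0.119 FPKM, was not tested by the authors. Neil1 was thus below Neil3 in myoblasts and above it in myotubes.

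Ung, the uracil glycosylase, fell from 10.6 to 2.65 FPKM (q = 0.000828, log2 -2.002 with SE 0.51), and Ogg1, the 8-oxoguanine glycosylase, from 37.4 to 13.3 (q = 0.0126, log2 -1.49 with SE 0.49), in the authors' deposited table. The genes of single-strand break repair had no calls. Parp1, the nick sensor, was at 51.3 and 46.6 FPKM (log2 -0.14, SE 0.66), the scaffold Xrcc1 at 36.8 and 18.2 (log2 -1.02, SE 0.65) and its ligase Lig3, which also serves mitochondria, at 27.1 and 21.9 (log2 -0.30, SE 0.28). The errors of Parp1 and Xrcc1 are about as wide as the median error of the members, 0.66, so a lack of change is not shown. After centring, Neil1, Parp1 and Lig3 had positive log2 values without being called.

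Of the 4 checkpoint kinase genes, 3 were called lower. Chek1, the S-phase checkpoint kinase (chr9:36516066-36534650, mm9), fell from 32.7 to 4.83 FPKM (log2 -2.76, SE 0.52, q = 2.94e-06, authors' deposited table). Chek2, the effector of ATM, fell from 6.93 to 1.02 (log2 -2.77, SE 0.75, q = 0.00204, authors' deposited table). Atr, which answers stalled forks, fell from 8.39 to 2.20 FPKM (q = 0.0225, log2 -1.93 with SE 0.68), whereas Atm, which answers broken ends, was at 39.3 and 21.4 (q = 0.288, log2 -0.88 with SE 0.57) and had no call in the authors' deposited table. Of these 4 kinases, Atm had the highest level in both conditions.

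The MRE11 complex, the sensor of broken ends, had 2 of its 3 genes called lower. Mre11a fell from 54.5 to 17.0 FPKM (q = 0.000100, log2 -1.68 with SE 0.37) and Rad50 from 26.5 to 8.67 (q = 0.0127, log2 -1.61 with SE 0.52) in the authors' deposited table. Nbn was at 9.999 and 8.19 FPKM (log2 -0.29, SE 0.49) and was not called. The ratio of Mre11a to Rad50 was 2.06 and 1.96, and that of Mre11a to Nbn went from 5.45 to 2.08.

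Among the member pathways, end joining had the median closest to 0. Xrcc6, the Ku70 subunit of the ring that caps broken ends, was the most abundant of the 45 members in both conditions, at 133 and 119 FPKM (log2 -0.16, SE 0.29, q = 0.772, authors' deposited table). Xrcc5, the Ku80 subunit, was the 1 end joining gene called lower in the authors' deposited table, from 58.6 to 15.97 FPKM (q = 0.0228, log2 -1.87 with SE 0.66). Prkdc, the catalytic kinase that Ku recruits, was at 5.04 and 2.25 FPKM, and Lig4, the ligase, at 4.69 and 3.85, with no call for either. Xrcc6 exceeded Xrcc5 2.27-fold in myoblasts and 7.46-fold in myotubes.

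Partners were compared in 9 pairs, chosen with the values known. The difference of their log2 values was taken with a 95% interval that treats the errors of both genes as independent, and no p was computed. For 3 pairs the interval left out 0: Xrcc5 minus Xrcc6 at -1.72 (-3.13 to -0.31), Mre11a minus Nbn at -1.39 (-2.59 to -0.19) and Atm minus Chek2 at 1.89 (0.04 to 3.74). For the other 6 it included 0, as with Brca1 minus Bard1 at 0.05 (-1.73 to 1.84), Fanci minus Fancd2 at -0.33 (-2.34 to 1.69) and Mre11a minus Rad50 at -0.07 (-1.33 to 1.20). Since the pairs were chosen with the values known and the errors may be technical, the intervals describe these values and test no difference. Intervals this wide do not show that partners moved alike either.

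Pif1, a helicase of telomeres and of structured DNA, fell from 12.4 to 0.577 FPKM, or 21.4-fold (log2 -4.42, SE 0.72, q = 3.18e-08, authors' deposited table). After Neil3 it had the largest change of the 44 genes.

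Other genes of the same routes were counted from lists made by function and not by how their genes moved, although earlier results were known. Of 105 tested genes on 8 such lists, 36 had a lower and 2 a higher call in the authors' deposited table, with a median of -0.86. Among all tested genes, 17.3% had a lower and 6.52% a higher call. Other recombination genes had 9 of 22 lower by the calls of the authors' deposited table and a median of -1.14, among them the Holliday junction resolvase gene Gen1 (10.2 to 0.796 FPKM) and Eme1 (14.3 to 1.28). Rad52, at 20.7 and 25.7, and Mus81, at 55.9 and 49.8, were not called. Other Fanconi genes had 4 of 8 lower by the calls of the authors' deposited table, with Ube2t, the ubiquitin-conjugating enzyme of the pathway, going from 17.5 to 1.52 FPKM, Apitd1 from 32.0 to 3.98 and the deubiquitinase gene Usp1 from 39.3 to 9.60.

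Other damage signalling genes had 10 of 16 lower by the calls of the authors' deposited table, led by the CHK1 adaptor Clspn (29.3 to 4.09 FPKM), Wee1 (17.8 to 2.67) and Topbp1 (31.4 to 4.84). Other mismatch genes had 1 of 5 lower by the calls of the authors' deposited table, near the 17.3% of all tested genes. Polm, from 7.63 to 0.983 FPKM, and Polq, from 1.90 to 0.237, both polymerases, were the 2 of 7 other end joining genes lower by the calls of the authors' deposited table.

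Nucleotide excision genes and the base excision genes outside the members had medians near that of all genes. Nucleotide excision repair, which removes bulky lesions, had 3 of 19 genes called lower (Ddb2, Ercc5 and Gtf2h2) and 1 higher by the calls of the authors' deposited table, with a median of -0.31 beside -0.41 for all genes. Other base excision genes had 3 of 16 called lower (Mutyh, Mbd4 and Hmgb1) and 1 higher by the calls of the authors' deposited table, with a median of -0.40. These shares are near the 17.3% lower and 6.52% higher of all tested genes. The base excision gene called higher in the authors' deposited table was Parp3, from 33.7 to 94.7 FPKM. Translesion synthesis had 4 of 12 lower by the calls of the authors' deposited table, led by the ubiquitin ligase gene Rad18 (21.9 to 3.56 FPKM), with Hltf, Polk and Poli, and with a median of -0.84. DNA replication factors, set beside them, had 25 of 30 lower by the calls of the authors' deposited table and a median of -2.39.

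**Figure D3:**
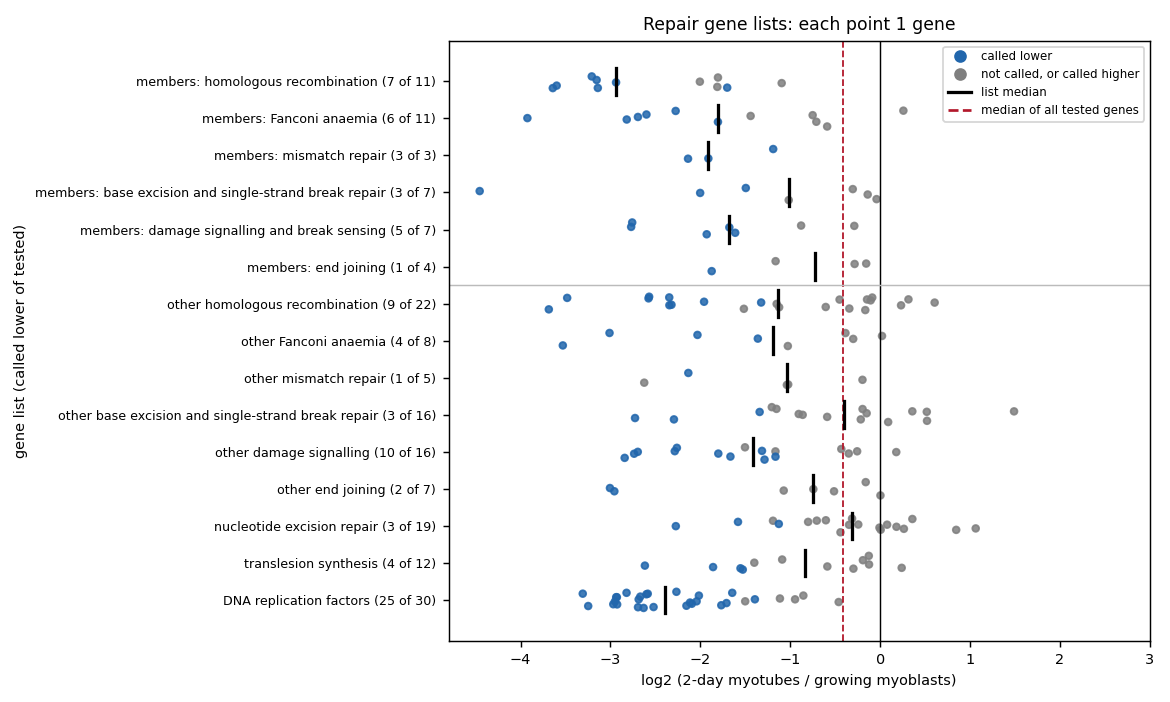
Log2 ratios of every tested gene above 0 in 6 member pathways (above the grey line) and 9 lists of other genes, each point 1 gene and each black bar a list median, with the count called lower of those tested in brackets. Medians run from -2.94 for recombination members and -2.39 for replication factors to -0.31 for nucleotide excision repair, beside the dashed line at -0.41 for all genes.

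MyoD binding at the repair genes was near the level of genes at large. Of the 44 genes tested, 16 had the summit of a MyoD peak in their locus or within 10 kb, or 36.4%, where 38.8% of all tested genes did. Among genes alone in their locus it was 7 of 25, or 28%, against 32.7% of all such genes. Counting the untested Neil2, 17 of 45 had a peak, 8 of 26 among those called lower and 8 of 18 among those not called in the authors' deposited table. Of all tested genes, 38.3% of those called lower and 58.5% of those called higher in that table had one. Genes that share a locus collect peaks of their neighbours: the locus of Fanca held 93 summits and that of Fancc 10.

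By pathway, 7 of 8 base excision genes had a summit in reach, the exception being Neil3, while 10 of 37 other members had one. None of the 3 mismatch genes, of the 4 end joining genes or Pif1 did. At the authors' false discovery rate of at most 5%, 0 of 8 base excision genes had a peak, where 11.7% of all tested genes did, and within the locus alone 4 of 8 had one, where 27.5% did. Tags, fold enrichment and false discovery rate are the authors' values per peak. Over the 12 peaks at members alone in their locus, the untested Neil2 included, tags ran from 7 to 29. Their median was 14.5, beside 14 over all 10756 peaks.

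Among members alone in their locus, peaks at the start of a gene were seen for Neil1, Xrcc1 and Chek1. Summits also lay 18 bp from the 5′ end of the locus that holds Ogg1 and 88 bp from that of Bard1, both called lower in the authors' deposited table, but these loci are shared with other genes. At Neil1 the summit lay 298 bp upstream of the 5′ end of the locus (chr9:56995790-56996493, mm9, 28 tags, 9.98-fold enrichment, false discovery rate 18.6%). At Xrcc1 it lay 312 bp upstream (chr7:25331542-25332202, mm9, 29 tags, 10.1-fold, 14.5%). At Chek1 it lay 220 bp inside (chr9:36533812-36534623, mm9, 24 tags, 8.52-fold, 14.25%). Chek1 was called lower in the authors' deposited table, and Neil1 and Xrcc1 were not.

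Ung had 3 summits, 2105 bp upstream and 645 and 1055 bp inside, of 10, 8 and 7 tags. Atm, not called, had the highest enrichment at a member alone in its locus, 46.2-fold from 25 tags with a false discovery rate of 3.91%, 44573 bp inside the gene. Mre11a, which was called lower in the authors' deposited table, had summits of 10 and 17 tags far from its start, the second 2626 bp past the end of the locus. Peaks thus lay at members that were called and at members that were not.

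**Figure D4:**
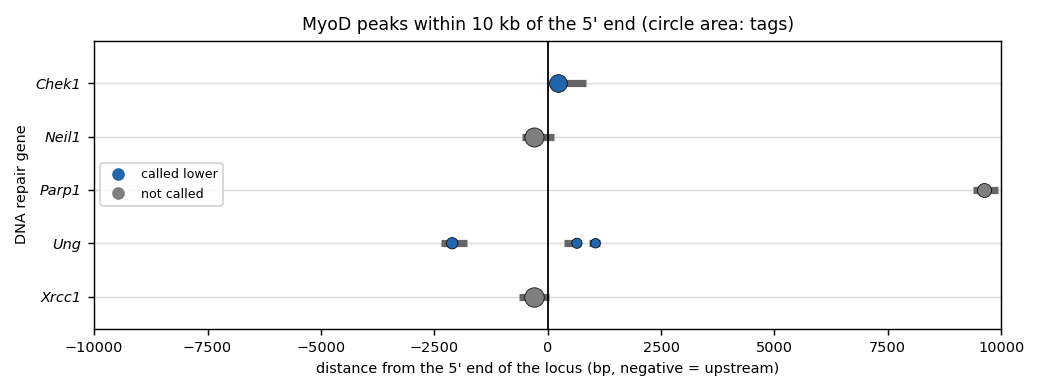
MyoD peaks within 10 kb of the 5′ end of members alone in their locus, with grey bars for peak spans, circles at summits with area by tags, and colour by the authors' call (x axis in bp, negative upstream). The summits of Chek1, Neil1 and Xrcc1 lie within 312 bp of the end, and that of Parp1 at 9623 bp.

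E-boxes of the forms MyoD is known to prefer, CAGCTG and CACCTG on both strands, were in 10 of 36 member promoters, or 27.8%, against 35.9% of all genes and 33.9% of tested genes. The peak at Neil1 spanned positions -564 to 139 counted from the 5′ end of the locus, and its promoter held 3 E-boxes, at 159, 138 and 53 bases before the RefSeq start. The peak at Xrcc1 spanned -626 to 34, and its promoter held neither form. Both are shown whole, from 250 bases before the start up to the start, with those E-boxes in capitals. RefSeq starts are of build GRCm38.p6 and peaks of mm9, so the positions of starts and peaks were not matched between builds.

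Neil1 (chr9:57148306-57148555, - strand): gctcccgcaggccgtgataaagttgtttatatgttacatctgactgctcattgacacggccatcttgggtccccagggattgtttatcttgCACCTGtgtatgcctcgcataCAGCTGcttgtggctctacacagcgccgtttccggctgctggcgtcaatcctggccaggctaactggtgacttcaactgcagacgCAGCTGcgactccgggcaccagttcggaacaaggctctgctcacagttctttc
Xrcc1 (chr7:24546449-24546698, + strand): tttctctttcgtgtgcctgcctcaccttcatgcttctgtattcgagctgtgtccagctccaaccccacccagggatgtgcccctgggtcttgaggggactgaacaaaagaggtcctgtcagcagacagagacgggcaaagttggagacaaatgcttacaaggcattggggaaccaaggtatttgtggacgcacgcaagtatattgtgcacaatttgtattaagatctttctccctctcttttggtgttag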

How the data were processed

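RNA of 2 samples and MyoD binding in 1 were analysed. FPKM values, their log2 fold change (held beside a test statistic, a score), and p-values and q-values were taken as the authors deposited them in a table of Cuffdiff layout. The submitters' processing notes name Cuffdiff, CASAVA 1.7.0, MACS 1.3.7 and mm9. The aligner, annotation, normalization setting and the way duplicates were combined are not stated in the sources used. Of 37975 genes, 15966 were tested, 21575 were marked as not tested and the rest had another status. The table was deposited in 2 identical copies. Peaks were called with MACS at a p of 1.00e-05, per the file headers. Tags are counts, the peak score is -log10 of p times 10, fold enrichment is a ratio and the false discovery rate a percent, all per the file headers. They give 8637045 ChIP and 9129012 control tags in total, and 4049890 and 4371189 unique tags.

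Standard errors were the log2 fold change over the test statistic, and recomputed p-values differed from the deposited ones by at most 2.68e-06. Centring subtracted the median log2 of 15416 tested genes above 0 in both conditions, with Benjamini-Hochberg adjustment over all of them. It was tested on simulated data. Medians used no pseudocount. Peaks were assigned by summit to loci of the expression table. A locus there can merge several genes, its coordinates are printed as that table writes them, and its 5′ end was set with the strand of the promoter table. Python 3.11.15, pandas 2.3.3, NumPy 2.4.6, SciPy 1.17.1 and matplotlib 3.10.9 were used. All 45 members are accounted for, with values for those called and for others above 5 FPKM. For other lists, genes were named from the 3 with the largest called change above 5 FPKM, and not every list has all 3 named. Gadd45a, Bax and Mdm2, also called, were named beyond this rule. Values or names of Rad52, Mus81, Neil2, Hmgb1, Polq, Poli, Bbc3, Ccng1 and of members under 5 FPKM were added after they were seen. Some genes of these lists are not reported here. Members and lists were chosen with earlier results of these data known. With 1 value per condition no test on replicates was possible. Alternatives were centring, a q of 0.01, a mean FPKM of at least 1, pseudocounts, genes alone in their locus, other peak windows and thresholds, and other motif searches.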

Additional observations from a re-analysis of the deposited data

How the results depend on the processing

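Counts of members called lower kept within 1.5 times of 26 after centring, at a q of 0.01 and under a floor of 1 on mean FPKM, and no member was higher under any of them. Restricted to genes alone in their locus, 14 of 25 members were lower, and 0 other repair genes were higher, because fewer genes were tested. Centring ended the call of 8 members, Xrcc2, Fancl, Msh3, Pms2, Ogg1, Atr, Rad50 and Xrcc5, and the stricter q that of 7, Fancd2, Msh3, Pms2, Ogg1, Atr, Rad50 and Xrcc5. Centring turned the sign of 6 genes that were not called, to 0.37 for Neil1, 0.28 for Parp1, 0.11 for Lig3, 0.13 for Nbn, 0.26 for Xrcc6 and 0.13 for Lig4. A pseudocount of 1 moved the recombination median to -1.85 and Pif1 to -3.08, since it weighs most on low genes. Pathway medians kept their sign under both pseudocounts, the filter and centring. Members with a MyoD peak numbered 27 of 44 with a window of 50 kb (59.9% of all tested genes), 5 at a false discovery rate of at most 5% (11.7%) and 7 of 25 alone in their locus. E2F-type motifs were in 4 members on the given strand and in 2 within 100 bases before the start, neither of them called lower. Within those 100 bases, 4 members held an E-box, 13 CCAAT and 0 TTTGAA, and 10 held CCAAT on the given strand of the whole window. No paired analysis was possible because each group has 1 sample. Depth is unknown, and the implied errors, with a median of 0.66 over members, limit what can be called.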

Other observations

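Trp53, which encodes p53, the factor that links DNA damage to arrest and death, and genes that answer it had calls in both directions. Of these 13 genes, Trp53 included, 3 had a higher and 3 a lower call in the authors' deposited table, with a median log2 of -0.20, where 6.52% of all tested genes had a higher and 17.3% a lower call. Cdkn1a, the p21 inhibitor that also marks cell cycle exit in muscle, rose from 470 to 2374 FPKM, Gadd45a from 116 to 294 and Sesn1 from 5.75 to 15.9 in the authors' deposited table. Trp53 itself fell from 179 to 64.7 FPKM, the death effector Bax from 282 to 110 and Mdm2, the ubiquitin ligase of p53, from 256 to 133 in the authors' deposited table. Bbc3, at 7.06 and 11.2 FPKM, and Ccng1, at 399 and 189, were not called. After centring, 3 were higher and 1 was lower. Of 19 E2F and cell cycle genes, 11 had a lower call in the authors' deposited table and 1, Cdkn1a, a higher one, with a median of -2.28.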
